A study of Ananas comosus with 8 samples.

Results

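The genes described here are 5 pineapple genes of the MET1 and CMT3 pathways, which maintain CG and CHG methylation: VIM (Aco016212), MET1 (Aco005236), SUVH4 (Aco004654), CMT2 (Aco015994) and CMT3 (Aco013381). They were taken by their identifiers out of the 27024 genes of the deposited expression matrix, and all 5 were present. The names rest on homology to Arabidopsis thaliana genes as the study assigned it. RNA was taken from the 'D' leaf of the pineapple cultivar MD-2 (Ananas comosus), from the green tip, which is photosynthetic, and from the white base of the leaf, which is not. The labels name 2 RNA-seq libraries of each tissue and no time of day, and the matrix holds 1 FPKM value per gene and tissue (fragments per kilobase of transcript, scaled by the mapped fragments). Each value below is therefore the authors' value for a tissue, with no SD, no interval and no test, and the bisulfite sequencing libraries of the same tissues were not analysed here.

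In plants a methyl group can sit on cytosine in the CG, CHG or CHH sequence context, where H is A, C or T. In Arabidopsis, MET1 copies CG methylation onto the new DNA strand after replication, and the VIM proteins bind the half-methylated sites and are needed for its work. CMT3 methylates CHG sites in a loop with SUVH4, a histone methyltransferase whose mark CMT3 binds and which itself binds methylated DNA. CMT2 is related to CMT3 and is best known in Arabidopsis for CHH methylation in heterochromatin, with a part in CHG methylation too.

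The deposited values were first read for markers of photosynthetic tissue and for their overall scale, which differed between the tissues. All 5 genes set as markers of photosynthetic tissue had higher FPKM in green tip tissue than in white base tissue, with log2 ratios of 1.29 to 6.52, and of 0.44 to 6.07 after the TPM rescaling described next. They encode beta-carbonic anhydrases, a PEP carboxylase and PPDK, enzymes of carbon fixation in CAM plants. These genes were taken from the study, which itself reports its beta-carbonic anhydrase genes as high in the green tip. They are therefore no independent check of the tissue labels. The study lists further PEP carboxylase and PPDK genes that were not among these markers. Log2 ratios were calculated as green tip over white base on FPKM + 1, for those 18372 genes whose mean exceeded 0.5 FPKM, and they understate the difference of genes with low FPKM. The median of these log2 ratios was -0.01. The FPKM summed to 1136442 in green tip tissue and 611241 in white base tissue, a ratio of 1.86, and the 100 highest genes held 50.0% of the sum in green tip tissue and 18.7% in white base tissue. Bringing both columns to an equal sum (TPM rescaling) lowers every ratio by 0.89 on the log2 scale before a pseudocount is added. Fewer cells that express a gene and less RNA per cell cannot be told apart in these bulk samples.

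In the deposited columns, all 5 maintenance genes had lower FPKM in green tip tissue than in white base tissue. The study also sampled leaves at several times of day. By its own values, VIM was higher in the green tip at some of these times. Whether the differences of the other genes hold at each time was not analysed here. CMT3, the CHG methyltransferase, was near the bottom of the scale in green tip tissue, and CMT2 was 4.26 times lower. VIM, MET1 and SUVH4 were lower by less than 2-fold. Among all genes compared, 50.5% were lower in green tip tissue by any amount, 20.7% were at least 2-fold lower and 17.2% at least 2-fold higher. Of the 5 genes, 2 were at least 2-fold lower (CMT2 and CMT3) and 0 at least 2-fold higher. After TPM rescaling all 5 were at least 2-fold lower in green tip tissue, beside 42.0% of all genes. With quantile normalization, which gives both columns the same distribution, CMT2 and CMT3 were again the 2 genes past 2-fold, beside 18.0% of all genes, and on FPKM + 0.1 they were the 2 genes past 2-fold beside 23.9% of all genes.

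**Figure D1:**
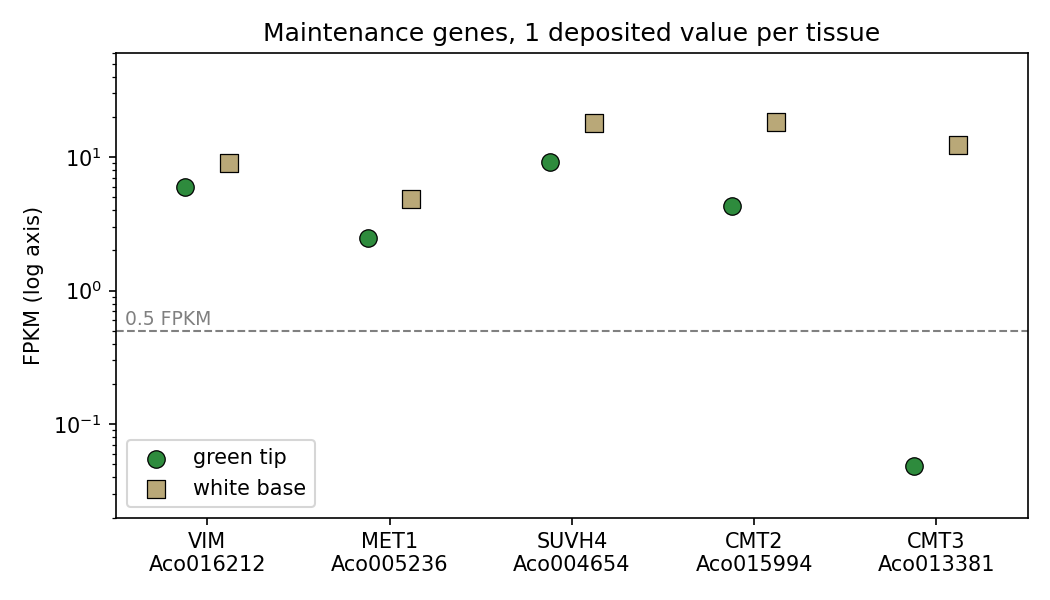
FPKM of the 5 maintenance genes in green tip tissue (circles) and the white base (squares) on a log axis, 1 deposited value per tissue, with a dashed line at 0.5 FPKM. Each circle lies below its square, and CMT3 in green tip tissue, at 0.0488 FPKM, is the 1 value under the line.

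In the CG branch, VIM had 5.91 FPKM in green tip tissue and 8.97 FPKM in white base tissue, a log2 ratio of -0.53. It was the smallest difference of the 5 genes, and 5765 of the 18372 genes compared had a log2 ratio as low or lower. MET1 had 2.48 FPKM in green tip tissue and 4.81 FPKM in white base tissue, a log2 ratio of -0.74. MET1, the CG methyltransferase, was thus the lowest of the 5 genes in white base tissue and the lowest but CMT3 in green tip tissue. Among genes over 0.5 FPKM in each tissue, MET1 stood at the 17.7th percentile of the green tip and the 26.7th of the white base, and VIM at the 31.8th of the green tip and the 39.8th of the white base. The limit of 0.5 FPKM falls at another place in each column once it is rescaled. Over all 27024 genes, a rank that no factor on the column changes, the tissues lay closer: MET1 stood at the 47.9th percentile of the green tip and the 50.9th of the white base, and VIM at the 56.8th of the green tip and the 59.7th of the white base. With quantile normalization the log2 ratio was -0.25 for VIM and -0.34 for MET1.

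In the CHG branch, SUVH4 had 9.24 FPKM in green tip tissue and 18.0 FPKM in white base tissue, a log2 ratio of -0.89. SUVH4, the histone methyltransferase, was the highest of the 5 genes in green tip tissue. It stood at the 41.5th percentile of genes over 0.5 FPKM in green tip tissue and the 60.6th in white base tissue. Over all 27024 genes the tissues lay closer for SUVH4 too, at the 62.9th percentile in green tip tissue and the 73.6th in white base tissue. CMT3 had 0.0488 FPKM in green tip tissue and 12.4 FPKM in white base tissue. The log2 ratio of CMT3 was -3.67 on FPKM + 1, -6.39 on FPKM + 0.1 and -7.99 on FPKM without a pseudocount, so its size is set mainly by how the low green tip value is treated. The number of fragments behind 0.0488 FPKM is unknown. In the green tip 7361 genes were listed at 0 and 266 genes, CMT3 included, had values above 0 and up to that of CMT3.

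CMT2 had 4.28 FPKM in green tip tissue and 18.2 FPKM in white base tissue, a log2 ratio of -1.86. This chromomethylase was the highest of the 5 genes in white base tissue, 1.01 times SUVH4, and the third of the 5 in green tip tissue. It stood at the 26.0th percentile of genes over 0.5 FPKM in green tip tissue and the 60.9th in white base tissue. Over all 27024 genes the tissues lay closer, at the 53.1th percentile in green tip tissue and the 73.8th in white base tissue. By either rank this was the largest distance between tissues of the 4 genes above 0.5 FPKM in both. With TPM rescaling its log2 ratio was -2.69 and with quantile normalization -1.65.

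**Figure D2:**
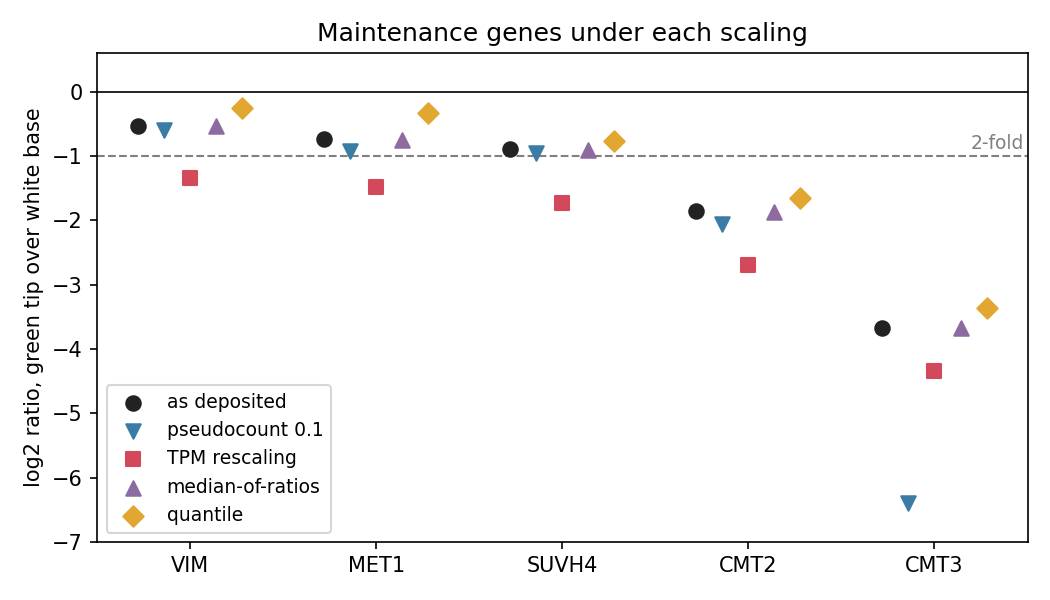
Log2 ratio of green tip over white base for the 5 maintenance genes under 5 treatments of the same 2 columns, with a dashed line at 2-fold. Every point lies below 0, TPM rescaling takes VIM, MET1 and SUVH4 past the line, and CMT3 moves most with a pseudocount of 0.1, to -6.39.

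The levels of the 5 genes were spread more widely in green tip tissue than in white base tissue. The highest was 189 times the lowest in green tip tissue (SUVH4 and CMT3) and 3.78 times the lowest in white base tissue (CMT2 and MET1). This distance rested on CMT3: without it, the highest was 3.72 times the lowest in green tip tissue and 3.78 times in white base tissue. In order of FPKM the green tip had SUVH4, VIM, CMT2, MET1 and CMT3, and the white base had CMT2, SUVH4, CMT3, VIM and MET1. Without a spread between libraries, neighbours in these orders cannot be said to differ. The 5 genes summed to 22.0 FPKM in green tip tissue and 62.4 FPKM in white base tissue, and without CMT3 to 21.9 FPKM in green tip tissue and 50.0 FPKM in white base tissue. CMT2 made up 34.4% of the difference between these 5-gene sums, CMT3 30.5%, SUVH4 21.7%, VIM 7.58% and MET1 5.76%. These portions depend on the scaling of the columns, and after TPM rescaling they were 31.4% for CMT2, 25.8% for SUVH4, 24.4% for CMT3, 11.5% for VIM and 6.88% for MET1.

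A ratio of 2 genes within a tissue is unaffected by any factor that multiplies the whole column, and by such ratios VIM, MET1 and SUVH4 stood in similar proportions in both tissues while CMT2 and CMT3 did not. SUVH4 had 3.72 times the FPKM of MET1 in green tip tissue and 3.74 times in white base tissue. VIM had 2.38 times the FPKM of MET1 in green tip tissue and 1.86 times in white base tissue. Within VIM, MET1 and SUVH4, the 3 ratios differed between the tissues by 1.01 to 1.28 times. Whether such distances exceed the spread between libraries was not tested, since the matrix has 1 value per tissue.

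The proportions of the chromomethylases differed more. SUVH4 had 2.16 times the FPKM of CMT2 in green tip tissue and 0.99 times in white base tissue, and MET1 had 0.581 times the FPKM of CMT2 in green tip tissue and 0.265 times in white base tissue. Relative to VIM, MET1 and SUVH4, CMT2 was therefore 2.18 to 2.80 times lower in green tip tissue than in white base tissue. CMT2 had 87.7 times the FPKM of CMT3 in green tip tissue and 1.47 times in white base tissue. SUVH4, the partner of CMT3 in the CHG loop of Arabidopsis, had 189 times the FPKM of CMT3 in green tip tissue and 1.46 times in white base tissue. With 0.1 added to each FPKM, the log2 difference between tissues of the SUVH4 to CMT3 ratio was 5.43 in place of 7.02, and that of the CMT2 to CMT3 ratio 4.32 in place of 5.90.

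The position of each gene among all genes was read from both columns together. Of the 27024 genes, 126 had at most the green tip FPKM of CMT3 together with at least its white base FPKM, counting CMT3 itself. For CMT2 this count was 688 genes, for SUVH4 1063, for MET1 1316 and for VIM 1493. CMT3 was 1 of 1895 genes over 0.5 FPKM in white base tissue only, of which 334 reached its white base level. In the white base it was a gene of middle rank, at the 48.8th percentile of genes over 0.5 FPKM. Of the log2 ratios, 644 of 18372 were as low as that of CMT3 or lower, and 2017 as low as that of CMT2 or lower.

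**Figure D3:**
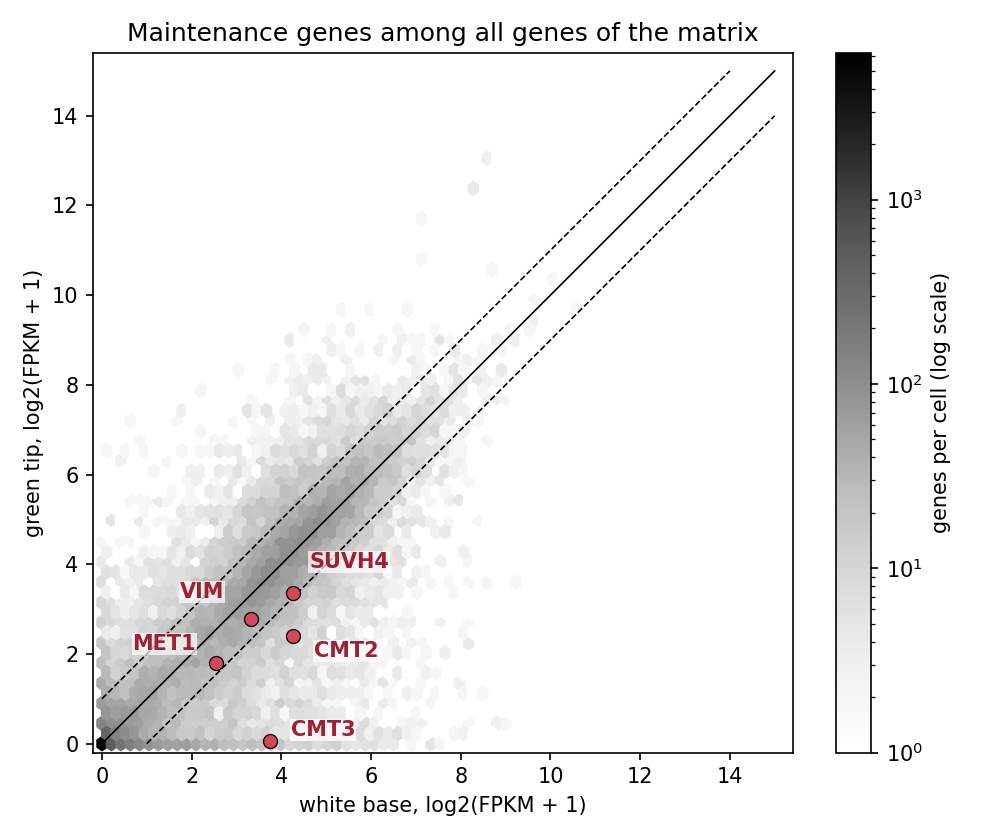
Every gene of the matrix by log2(FPKM + 1) in green tip tissue (y axis) and white base tissue (x axis), with shading for the number of genes, a solid line at equal values and dashed lines at 2-fold. The 5 maintenance genes (red) lie below the solid line, CMT2 and CMT3 beyond the dashed line, and CMT3 next to the axis with 0.0488 FPKM in green tip tissue.

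The other 36 DNA methylation pathway genes of the study were read from the same matrix, and 34 had a mean over 0.5 FPKM. Of these 34 genes, 23 were lower in green tip tissue (50.5% of all genes), 4 were at least 2-fold lower (20.7%) and 1 at least 2-fold higher (17.2%), with a median log2 ratio of -0.41. The median of the 5 maintenance genes was -0.89. With TPM rescaling the medians were -1.15 for the 34 genes and -1.74 for the 5 genes, beside -0.80 for all genes. Of all 39 pathway genes compared, CMT3 had the lowest log2 ratio, CMT2 the third lowest, SUVH4 the tenth, MET1 the thirteenth and VIM the twentieth. These ranks hold for FPKM + 1 and change with the pseudocount. The highest log2 ratio was that of RDM1 (Aco004257), a component of RNA-directed DNA methylation, at 1.07, and the lowest beside CMT3 was that of DCL2 (Aco016157), a Dicer-like RNase, at -1.95. The other genes at least 2-fold lower were named after their values were seen. They were the DNA demethylase gene DME (Aco018501) at -1.24, RDR6 (Aco016551), an RNA-dependent RNA polymerase, at -1.01, and NRPD2/NRPE2 (Aco009438) at -1.01. NRPD2/NRPE2 is a subunit shared by Pol IV and Pol V. On FPKM + 0.1, 7 of the 34 genes were at least 2-fold lower (23.9% of all genes). The demethylase gene ROS1 (Aco018808), with 0.219 FPKM in green tip tissue and 0.822 FPKM in white base tissue, was then at -1.53. CLSY1/CLSY2 was at -1.21 and SUVR2 at -1.05, and DCL2 and CMT2 were both at -2.06. After TPM rescaling RDM1 was under 2-fold at 0.36, and with quantile normalization RDR6 was under 2-fold at -0.66.

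By class of function, the maintenance genes had a median log2 ratio of -0.89 and the 3 DNA demethylase genes one of -0.84. Their order depended on the processing: on FPKM + 0.1 the median was -0.96 for the maintenance genes and -1.30 for the demethylase genes, and with a filter at a mean of 1 FPKM, which leaves 2 demethylase genes, it was -0.89 for the maintenance genes and -1.04 for the demethylase genes. The 13 genes that make small RNAs or act with them had a median of -0.57, with 2 at least 2-fold lower in green tip tissue, beside 20.7% of all genes compared. The Pol IV and Pol V subunits and recruiters, 11 of 12 compared, had a median of -0.16, the 5 histone modifiers one of 0.04 and the 2 chromatin genes compared one of 0.35. After TPM rescaling the median was -1.74 for the maintenance genes, -1.66 for the demethylase genes and -1.41 for the small RNA genes. It was -1.04 for the Pol IV and Pol V genes, -0.78 for the histone modifiers and -0.52 for the chromatin genes. The median of all genes compared was then -0.80, close to that of the histone modifiers and below that of the chromatin genes. These medians describe lists of 2 to 13 genes without replicates, and the differences between them were not tested.

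**Figure D4:**
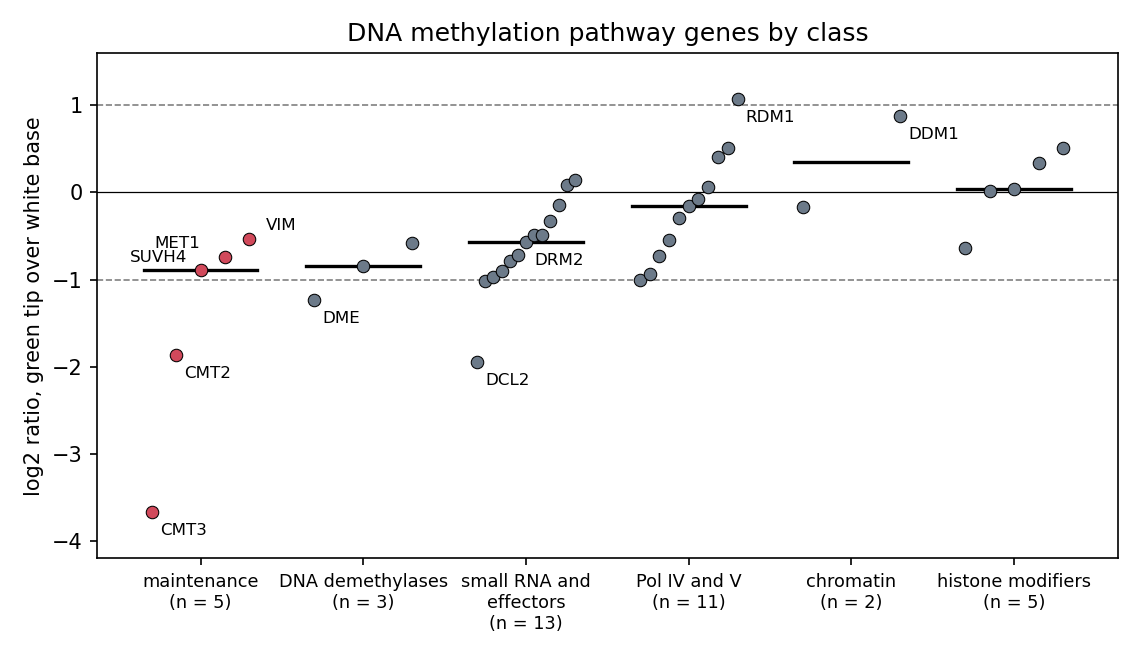
Log2 ratio of green tip over white base on FPKM + 1 for the 39 DNA methylation pathway genes compared, by class of function, with the median of each class as a bar and dashed lines at 2-fold. The maintenance genes (red) run from -3.67 for CMT3 to -0.53 for VIM, all below 0 on this scale.

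DDM1 (Aco027111), a chromatin remodeller on which methylation of heterochromatin depends in Arabidopsis, was the pathway gene with the second highest log2 ratio. It had 56.4 FPKM in green tip tissue and 30.2 FPKM in white base tissue, a log2 ratio of 0.88, and after TPM rescaling it was level between the tissues at 0.0045. DDM1 had 13.2 times the FPKM of CMT2 in green tip tissue and 1.66 times in white base tissue. DRM2 (Aco007653), the methyltransferase of RNA-directed DNA methylation, had 9.03 FPKM in green tip tissue and 13.9 FPKM in white base tissue, a log2 ratio of -0.57 that is close to that of VIM.

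The makeup of the 4 DNA methyltransferase genes differed between the tissues. DRM2 held 57.0% of their summed FPKM in green tip tissue and 28.2% in white base tissue. CMT3 held 0.308% in green tip tissue and 25.1% in white base tissue, and CMT2 held 27.0% in green tip tissue and 36.9% in white base tissue. MET1 held 15.7% in green tip tissue and 9.77% in white base tissue. The order in green tip tissue was DRM2, CMT2, MET1 and CMT3, and in white base tissue CMT2, DRM2, CMT3 and MET1. The 4 genes summed to 15.8 FPKM in green tip tissue and 49.3 FPKM in white base tissue. DRM2 and MET1 thus held larger shares in green tip tissue although their own FPKM was lower there. These shares, too, do not change when a column is multiplied by a factor, and their error is unknown.

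**Figure D5:**
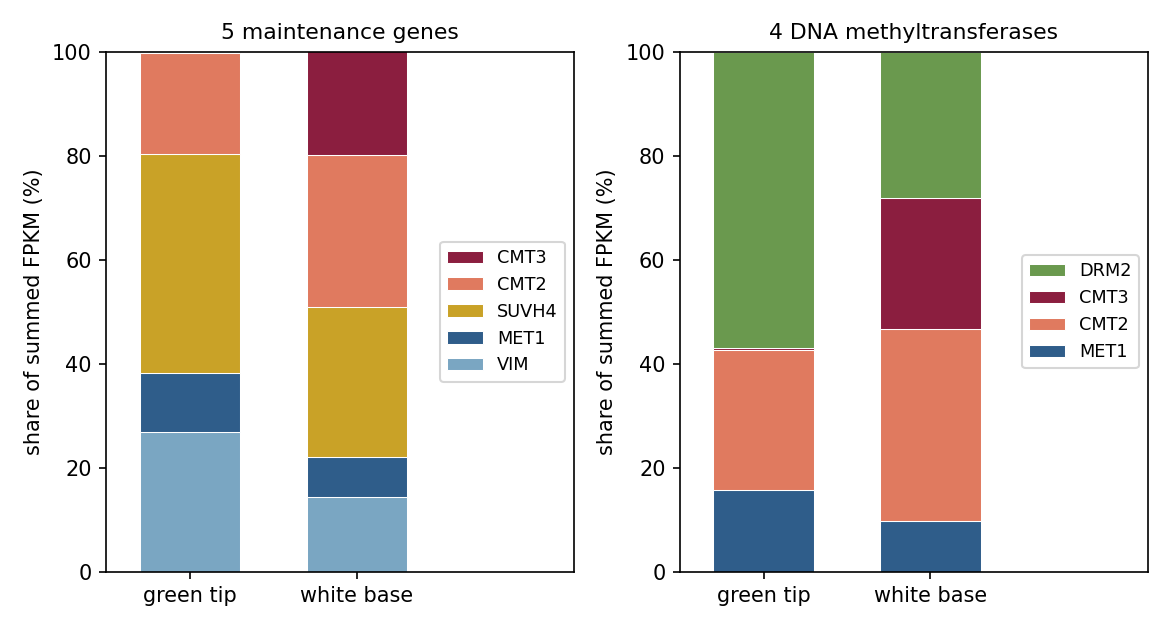
Share of summed FPKM held by each of the 5 maintenance genes (left) and each of the 4 DNA methyltransferase genes (right), with the green tip left of the white base in each panel. CMT3 holds 0.222% of the 5-gene sum in green tip tissue and 19.8% in white base tissue, and DRM2 holds 57.0% of the methyltransferase sum in green tip tissue and 28.2% in white base tissue. The FPKM of DRM2 itself is lower in green tip tissue.

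For each maintenance gene the most similar of the other pathway genes was found by the Euclidean distance in log2(FPKM + 1) over the 2 tissues. VIM lay closest to NRPD1 (Aco015559), the large subunit of Pol IV, with 6.12 FPKM in green tip tissue and 7.70 FPKM in white base tissue, at a distance of 0.20. MET1 lay closest to RDR2 (Aco015280), an RNA-dependent RNA polymerase, with 2.83 FPKM in green tip tissue and 5.63 FPKM in white base tissue, at 0.23. SUVH4 lay closest to DRD1 (Aco017413), a chromatin remodeller of the Pol V pathway, with 8.92 FPKM in green tip tissue and 15.5 FPKM in white base tissue, at 0.21. The second nearest gene lay at 0.24 from VIM, 0.25 from MET1 and 0.22 from SUVH4. Without a spread between libraries, the first and second neighbour cannot be told apart. The distances depend on the pseudocount of 1, and no other was tried for them. CMT2 and CMT3 had no such close neighbour. The nearest gene to CMT2 was SUVR2 (Aco006945), with 7.53 FPKM in green tip tissue and 15.7 FPKM in white base tissue, at 0.72, and the nearest to CMT3 was CLSY1/CLSY2 (Aco011099), with 1.94 FPKM in green tip tissue and 4.63 FPKM in white base tissue, at 1.94.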

How the data were processed

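The labels list 2 RNA-seq and 2 bisulfite sequencing libraries per tissue, and the expression matrix was the file analysed. The authors deposited FPKM values, 1 column per tissue and their mean, which was not used. For the alignment and the FPKM, the study's methods name HISAT2 and StringTie, whereas the submitters' processing notes name TopHat2 2.1.0, Cufflinks and Cuffdiff 2.2.1. The step from 2 libraries to 1 value per tissue is not given in the sources used here. Both points could alter low FPKM values such as that of CMT3. The study's methods describe 2 RNA-seq libraries per tissue for its mid-morning sampling alone, which the labels do not state.

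The low values were searched for the steps that whole reads would leave: of 226 genes detected in both tissues at a mean below 0.1 FPKM, no more than 13 shared a bin of the log2 ratio 0.01 wide, so that no depth was recovered and no count test was run. Log2 ratios used a pseudocount of 1 and genes with a mean over 0.5 FPKM, and a 2-fold criterion stood in for a test. The alternatives tried were TPM rescaling to a sum of 1000000, a pseudocount of 0.1, omission of the filter, a filter at 1 FPKM, median-of-ratios scaling and quantile normalization. The genes, lists and classes were chosen with earlier results of these data known. Beyond the 5 genes, those named were the photosynthetic markers as a group, DDM1, DRM2, the pathway genes with the highest and lowest log2 ratio and the nearest pathway gene of each member. DME, RDR6, NRPD2/NRPE2 and ROS1 were named after their values were seen. The shares of summed FPKM and the counts over the transcriptome were added after the values were seen. Of the gene identifiers, 0 matched the RefSeq gene table used here, so no coordinates or sequences are given and the markers of dividing cells that had been planned were not used here. Calculations used Python 3.11.15, numpy 2.4.6 and pandas 2.3.3, figures matplotlib 3.10.9, and the code was tested on simulated data.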

Additional observations from a re-analysis of the deposited data

How the results depend on the processing

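Log2 ratios were judged against 2-fold, and counts and medians against a factor of 1.5. No paired analysis was possible because each tissue has a single column, and libraries could not be left out in turn for that reason. Every alternative left all 5 maintenance genes lower in the green tip. A pseudocount or a filter cannot change which tissue is higher, and TPM rescaling and median-of-ratios scaling lowered every ratio. Only quantile normalization could therefore have reversed a gene. Of the 18372 genes, 14305 were lower in the green tip with TPM rescaling, 9364 with median-of-ratios scaling and 8294 with quantile normalization. TPM rescaling moved the log2 ratio past 2-fold for VIM (-1.34), MET1 (-1.48) and SUVH4 (-1.74), so that 5 in place of 2 genes were at least 2-fold lower and their median was -1.74. It gave 20 of the other pathway genes at least 2-fold lower (4 as deposited) and 0 higher (1 as deposited), with a median of -1.15. Over all genes it gave 7725 at least 2-fold lower (3812 as deposited) and 1648 higher (3169 as deposited). This follows from its shift of every ratio. A pseudocount of 0.1 gave 7 of the other 34 pathway genes compared at least 2-fold lower (20.6%), beside 23.9% of all genes. The ratios of VIM and MET1 to CMT3 then differed between tissues by 5.79 and 5.46 on the log2 scale, against 7.38 and 7.03 without a pseudocount. Filters leave the ratio of a given gene as it is.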
